A study of Mus musculus with 30 samples.

Results

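Transcripts of 10 neuropeptide genes were followed in the hippocampus of male BALB/c mice fed methylmercury (MeHg) with or without selenium. The members were the rows of the normalized count table whose Ensembl identifier carries the symbol Npy, Sst, Vip, Cck, Pnoc, Penk, Pdyn, Tac1, Tac2 or Crh, and all 10 of 10 symbols were found among 21412 genes. The sequenced libraries came from 6 groups, with 5 mice per group and 1 library per mouse. The paper assigned 6 mice to each of its groups and sequenced the hippocampus of 5. Ctr received feed without added mercury or selenium, LD feed with 0.28 mg MeHg per kg and HD feed with 5 mg MeHg per kg, for 11 weeks. The mice were 2 to 3 weeks old on arrival. Se_Ctr, Se_LD and Se_HD received the same 3 levels of mercury together with selenium, which the series title names as selenium-methionine and whose dose was not given in the sources used here. MeHg was added as a cysteine complex, and the Ctr feed held cysteine without MeHg. RNA of whole dissected hippocampus was sequenced, so fewer cells of a type and less RNA per cell cannot be told apart in any value below. Mice were housed singly, and p-values measure the spread between mice of one cohort.

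Neuropeptides are cut from larger precursor proteins in dense core vesicles and act on G protein-coupled receptors, mostly over longer distances and times than fast transmitters. In the hippocampus, neuropeptide Y, somatostatin, vasoactive intestinal peptide, cholecystokinin and corticotropin releasing hormone are best known from GABAergic interneurons, and somatostatin and neuropeptide Y are used to name interneuron classes. The opioid precursors are encoded by Penk, Pdyn and Pnoc. Dynorphin, from Pdyn, is found mainly in dentate granule cells and their mossy fibres, where it acts on the kappa opioid receptor. Tac1 and Tac2 encode tachykinins. Tac2 is also a strong marker of the medial habenula, which lies close to the hippocampus.

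The precursors of the opioid and tachykinin families share short cores, and the coding sequences of these cores are shown because the largest group differences fell in 2 opioid precursors with opposite signs. In the NCBIM37 transcripts, the Penk coding sequence held 6 copies of the core that ends in Met and 1 copy that ends in Leu, Pdyn held 3 copies that end in Leu, and Pnoc held 1 copy of the related core that starts with Phe. Each of the 10 Penk and Pdyn cores was preceded by a pair of codons for Lys or Arg, the residues at which prohormone convertases cut. Capitals mark the codons of the core, and lower case the 6 bases on either side, read 5′ to 3′ on the coding strand.
Penk, first Met core: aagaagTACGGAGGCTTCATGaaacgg
Penk, Leu core: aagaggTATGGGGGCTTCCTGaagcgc
Pdyn, first Leu core: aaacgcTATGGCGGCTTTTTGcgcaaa
Pdyn, second Leu core: aaacgcTATGGGGGCTTCCTGcggcgc
Pdyn, last Leu core: aagcgcTATGGTGGTTTCCTGcggcgt
Pnoc, Phe core: aaaaggTTTGGGGGCTTCaccggg
Tac1, substance P core: cagcagTTCTTTGGATTAATGggcaag
Tac1, neurokinin A core: gattccTTTGTTGGACTAATGggcaaa
Tac2, neurokinin B core: gacttcTTTGTGGGACTTATGggcaag
The first Penk line lies at chr4:4061475-4061501 and the Penk Leu core at chr4:4061082-4061108, both in exon 2 and on the minus strand. The Pdyn lines lie at chr2:129513968-129513994, chr2:129513860-129513886 and chr2:129513803-129513829 in exon 4, and the Pnoc line at chr14:66023712-66023735 in exon 3, also on the minus strand. The Tac1 lines are in exons 3 and 6 (chr6:7506744-7506770 and chr6:7509110-7509136) and the Tac2 line in exon 5 (chr10:127166181-127166207), on the plus strand. The 3 Pdyn cores are written with 3 different codon strings, and the 6 Met cores of Penk with 5.

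Depth on genes ran from 5768208 to 11510521 reads per library, with a median of 9351470. The median was 7119788 reads in Ctr and 10159514 in HD, so values of low genes in Ctr are the least precise. Values are counts divided by a library size factor (normalized counts). Reads per member ranged from 5 (Crh in its lowest library) to 1395 (Penk in its highest). At the mean depth, counting error alone gives a coefficient of variation of 27.6% for Crh, 20.6% for Tac2, 13.1% for Pdyn and 3.83% for Cck, against 48.3%, 65.9%, 31.2% and 19.0% measured over the 30 libraries. All 10 members passed the filter on low values in every fit. All 18 listed genes of hippocampal principal cells were present in every library, with a summed level of 10510 to 18490 normalized counts. Presence alone does not test the tissue label, since all 11 thalamic and habenular genes and all 18 microglial genes were also present throughout.

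HD library 21 stood farthest apart from the other libraries. It held the highest value of 30 in 11.8% and the lowest in 13.0% of 11097 genes (mean of 50 or more), the largest shares of any library (24.8% for both ends together, against 6.67% if all libraries were alike). HD library 15 (19.6%), LD library 26 (15.5%) and Se_Ctr library 28 (13.6%) followed, and the last of these is described for its member values. In HD library 21, 10 of 11 reactive astrocyte genes and 8 of 18 microglial genes had their highest value of the series, and the summed astrocyte list reached 45080 normalized counts, against at most 14590 in the others. Se_Ctr library 28 held the highest value of the series in 7 of 18 principal cell genes and in Pdyn, and the lowest in Vip, Tac1 and Crh, 3 of the 10 members. For several member results, values with and without HD library 21 or Se_Ctr library 28 are given.

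Per kilobase of exon, the order of levels in Ctr was Cck, Sst, Npy, Vip, Penk, Tac1, Pnoc, Tac2, Pdyn and Crh. Cck (ENSMUSG00000032532, chr9:121398943-121404807) had 751.8 ± 99.7 normalized counts per kilobase (SD, n = 5) and Sst (ENSMUSG00000004366, chr16:23889667-23890930) 580.3 ± 155. Npy (ENSMUSG00000029819, chr6:49772709-49779506) followed with 308 ± 55.6, and each of these 3 peptides marks interneurons, Cck also pyramidal cells. Vip (ENSMUSG00000019772, chr10:4698927-4707323) came next with 95.4 ± 20.4. Penk (ENSMUSG00000045573, chr4:4060678-4065966) had 81.3 ± 23.1 and Tac1 (ENSMUSG00000061762, chr6:7505071-7512973) 57.0 ± 12.0. The lowest 4 were Pnoc (ENSMUSG00000045731, chr14:66019510-66044046) at 34.2 ± 5.01, Tac2 (ENSMUSG00000025400, chr10:127162448-127168823) at 30.0 ± 9.90, Pdyn (ENSMUSG00000027400, chr2:129512301-129525580) at 21.4 ± 2.78 and Crh (ENSMUSG00000049796, chr3:19593401-19595396) at 12.7 ± 8.09. Coordinates are NCBIM37 and span the whole gene. Neighbours in this order overlapped in their Ctr ranges except Npy with Vip and Tac1 with Pnoc. Of the 10 genes, Penk alone overlaps another annotated gene, the antisense A830012C17Rik, which had a mean of 0.592 normalized counts over the 30 libraries.

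**Figure D1:**
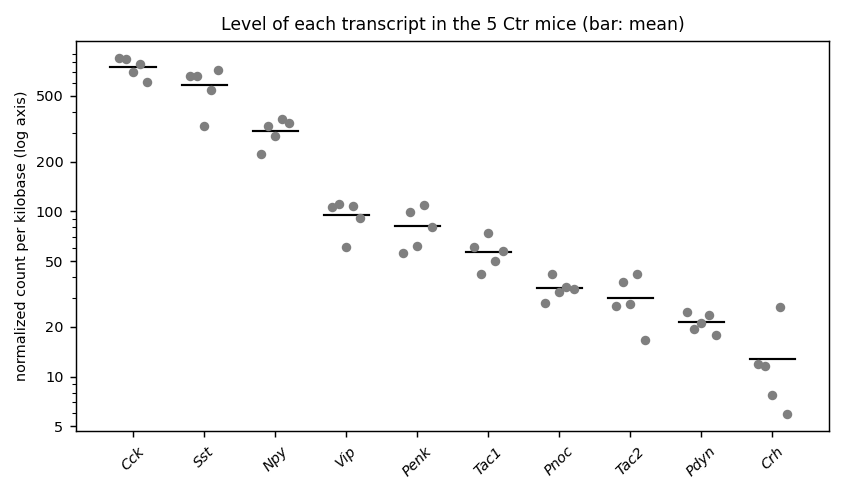
Normalized counts per kilobase of exon (log axis) of the 10 neuropeptide transcripts in the 5 Ctr mice. Points are mice and bars are means, ordered by mean from Cck (751.8) to Crh (12.7), and the ranges of Npy and Vip do not meet.

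The first comparison asked whether mercury or selenium changed any member. With each diet fitted on its own 15 libraries and contrasts across diets on all 30, no member passed an adjusted p of 0.05 in limma, with Benjamini-Hochberg adjustment over all genes, in any of 8 contrasts or in the test over all 6 groups. At this threshold the share of all genes called was 0.13% in HD versus Ctr (26 of 20031), 0.21% for HD pooled over both diets, 0.444% over the 6 groups, and 0.0% in LD versus Ctr, Se_LD versus Se_Ctr, Se_HD versus Se_Ctr, Se_Ctr versus Ctr, selenium pooled over all doses, and the interaction of HD with selenium. At an unadjusted p of 0.05, the threshold of the study's own methods, 2 members were called in HD versus Ctr (Penk higher, Pdyn lower), against 8.34% of all genes. The same 2 were called for HD pooled over both diets, against 9.09% of genes. One further call each came in Se_HD versus Se_Ctr (Cck lower, background 4.19%), in selenium pooled over all doses (Pdyn higher, background 6.62%) and in the interaction (Pdyn, background 4.77%). None was called in LD versus Ctr, Se_LD versus Se_Ctr or Se_Ctr versus Ctr, where 3.01%, 3.31% and 4.0% of all genes were. In the test over 6 groups Pdyn was the 1 member called, against 6.91% of genes. Beside these shares, counts of 1 or 2 among 10 members are not read as a result about the members as a set. In HD versus Ctr, 3 of 10 members had a fold change above 0, with a median log2 fold change of -0.18 against 0.01 over all genes. In LD versus Ctr 6 of 10 did (median 0.11), in Se_HD versus Se_Ctr 4 of 10 (-0.11), in Se_LD versus Se_Ctr 3 of 10 (-0.11), and in selenium pooled over all doses 2 of 10 (-0.19). By edgeR and DESeq2, the counts at an unadjusted p of 0.05 in HD versus Ctr were 3 and 2, against 8.66% and 7.93% of all genes by the same tools, and DESeq2 gave Pdyn an adjusted p of 0.0256, in a fit that called 196 of all genes at that threshold. Pdyn also passed in HD versus Ctr (adjusted p = 0.0457) when limma was fitted on all 30 libraries at once. The Penk call in HD versus Ctr, the Penk call for HD pooled and the Pdyn call in the interaction were each lost without HD library 21.

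**Figure D2:**
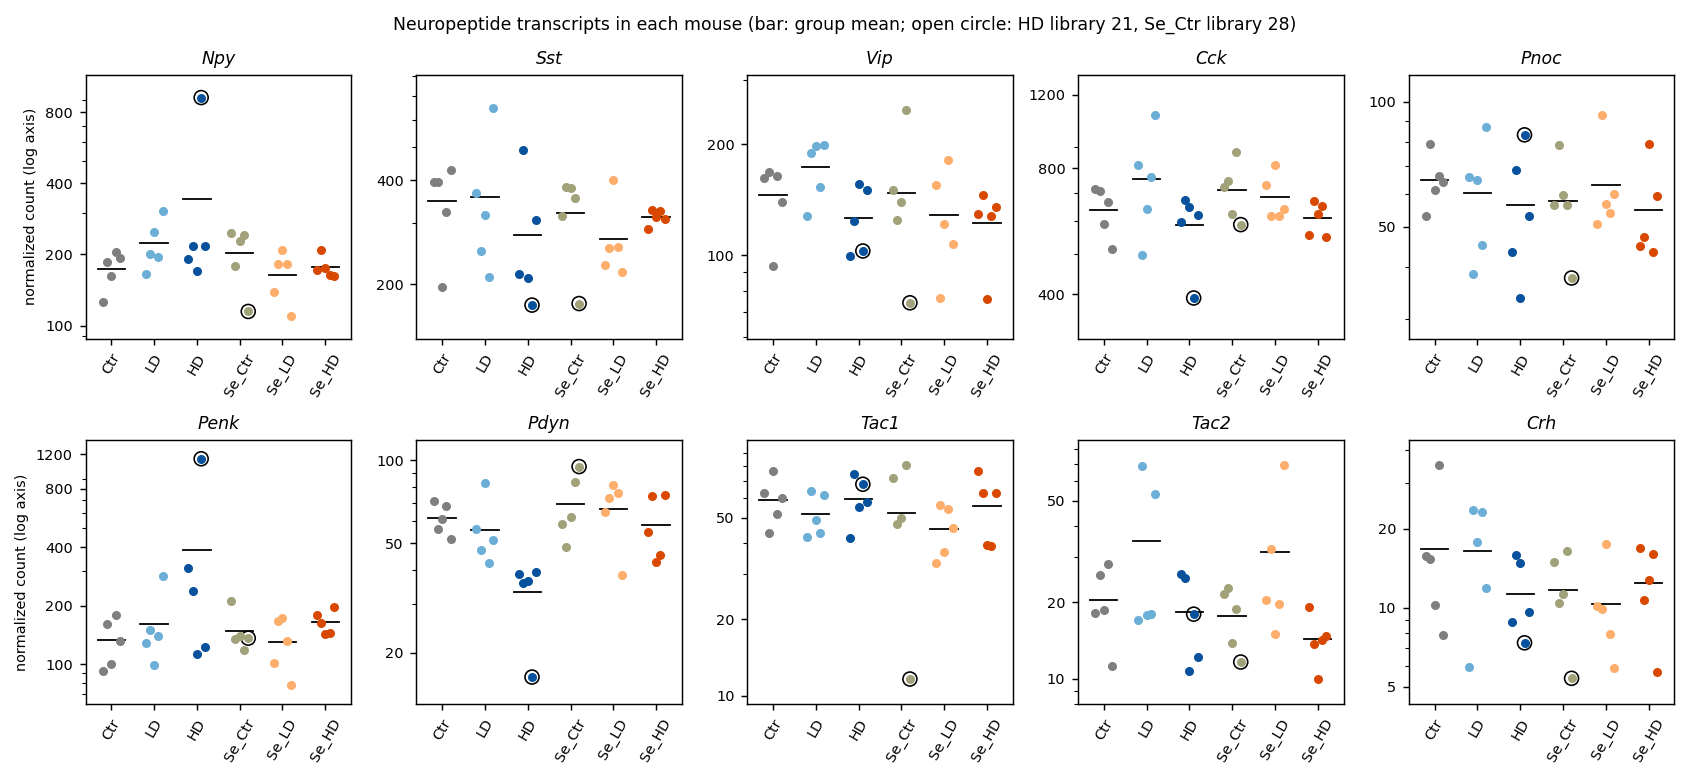
Normalized counts (log axis) of each member in the 30 mice, 5 per group. Points are mice, bars are group means, and open circles mark HD library 21 and Se_Ctr library 28. Pdyn in HD runs from 16.3 to 39.3, below all Ctr mice, and the high HD means of Npy and Penk come with 1 mouse at 925 and 1139.

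Pdyn, the dynorphin precursor, had the lowest p of the 10 members. The 5 Ctr mice had 71.2, 56.3, 61.2, 68.0 and 51.8 normalized counts. In LD the values were 56.3, 47.3, 82.6, 42.5 and 51.4, and in HD 38.6, 35.8, 36.3, 16.3 and 39.3. All 5 HD values were below all 5 Ctr values, and of the 25 libraries outside HD only 1 (Se_LD library 29, at 38.4) was below the highest HD value. With selenium the values were 58.7, 48.4, 62.2, 83.2 and 95.0 in Se_Ctr, 64.8, 73.1, 81.1, 76.5 and 38.4 in Se_LD and 55.0, 74.0, 42.7, 45.3 and 75.1 in Se_HD. These 3 groups overlapped throughout.

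The Pdyn mean was 33.3 ± 9.58 in HD and 61.7 ± 8.03 in Ctr (SD, n = 5 each), a log2 fold change of -0.93 ± 0.24 (SE) on the log2(value + 1) scale. The limma p was 0.000794 and the adjusted p 0.139, which does not pass. An exact two-sided permutation test of the 5 mice against 5 gave p = 0.00794, the smallest that 5 mice against 5 allow. Separation of this kind, all HD values below all Ctr values, was found in 0.734% of the 20031 genes tested. HD library 21 had the lowest Pdyn value of the series, and the other 4 HD mice spanned 35.8 to 39.3. Without HD library 21 the Pdyn log2 fold change was -0.70 (limma adjusted p = 0.326). DESeq2 (adjusted p = 0.0256) and limma with all 30 libraries in one fit (adjusted p = 0.0457) placed Pdyn past the adjusted threshold.

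With selenium, Pdyn was at 58.4 ± 15.4 in Se_HD and 69.5 ± 19.0 in Se_Ctr, a log2 fold change of -0.24 ± 0.22 (limma adjusted p of 1.00, exact permutation p = 0.349). Se_Ctr library 28 held the highest Pdyn value of the series, and without it this change was -0.12 (limma adjusted p = 0.985). The difference between both effects was 0.68 ± 0.33 on the log2 scale (limma adjusted p = 0.997), so it does not pass over all genes. Leaving out HD library 21 gave an interaction of 0.45 for Pdyn (limma adjusted p = 0.999), past neither threshold, and leaving out any 1 of 9 other mice also ended the unadjusted call. Pooled over both diets, Pdyn in HD was -0.59 ± 0.17 on the log2 scale (limma adjusted p = 0.154), and pooled over all doses it was 0.40 ± 0.14 higher with selenium (adjusted p = 0.675). Without HD library 21 these 2 Pdyn values were -0.47 and 0.32, with limma adjusted p of 0.333 and 0.621. At the lower dose Pdyn gave -0.17 ± 0.24 (LD) and -0.06 ± 0.22 (Se_LD), neither past the unadjusted threshold. Single mice moved both values, LD to -0.31 without LD library 14 and -0.078 without LD library 20, and Se_LD to -0.18 without Se_Ctr library 10 and 0.12 without Se_LD library 29. The kappa opioid receptor Oprk1, on which dynorphin acts, had a mean of 12.1 normalized counts, with 10.9 ± 3.30 in Ctr and 8.88 ± 3.17 in HD (limma adjusted p = 0.882).

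**Figure D3:**
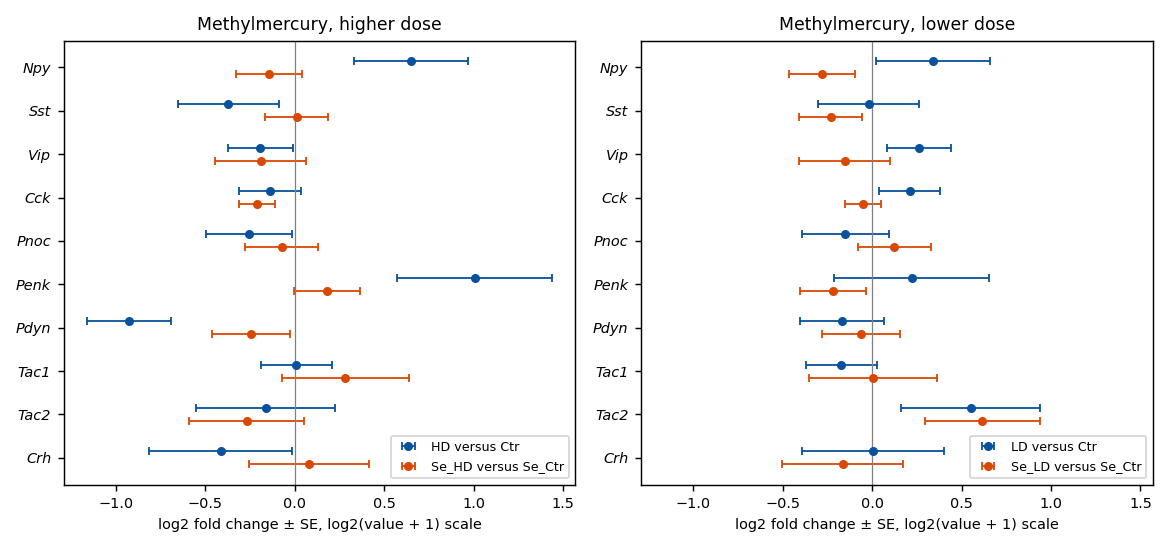
Log2 fold change ± SE on the log2(value + 1) scale for the 10 members, at the higher dose on the left and the lower dose on the right, without selenium (blue) and with selenium (orange). Pdyn (-0.93) and Penk (1.01) lie farthest from 0 in HD versus Ctr, and both lie closer to 0 in Se_HD versus Se_Ctr (-0.24 and 0.18).

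Penk, the enkephalin precursor, had the opposite sign. Ctr mice had 91.8, 161, 100.4, 179.5 and 132 normalized counts and LD mice 128, 151, 99.4, 139 and 286. The HD mice had 313, 237, 113, 1139 and 122. Thus 3 of 5 HD mice were above all Ctr mice, 2 were within the Ctr range, and HD library 21 alone was at 1139. With selenium the values were 210.2, 135, 139, 118 and 136 in Se_Ctr, 101, 166, 172, 132 and 78.3 in Se_LD and 179.6, 163, 142, 144 and 196 in Se_HD.

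The Penk log2 fold change in HD versus Ctr was 1.01 ± 0.43 (limma adjusted p = 0.527), and the exact permutation test gave p = 0.135. With all mice kept, Penk was at 1.53 by edgeR (adjusted p = 0.219) and 1.53 by DESeq2 (adjusted p = 0.223). Without HD library 21 the Penk change was 0.47 (limma adjusted p = 0.848) and no longer passed the unadjusted threshold, nor did it by limma without trend (adjusted p = 0.690), with an HD mean of 196 ± 95.9 (n = 4). The pooled Penk value over both diets was 0.59 ± 0.26 (limma adjusted p = 0.478), and 0.33 without that library. In Se_HD versus Se_Ctr the Penk value was 0.18 ± 0.18 (limma adjusted p of 1.00), 0.31 without Se_Ctr library 4 and 0.11 without Se_Ctr library 22. The delta and mu opioid receptors, Oprd1 and Oprm1, had means of 87.3 and 2.40 normalized counts. Oprd1 was at 87.1 ± 23.6 in Ctr and 71.6 ± 24.0 in HD (limma adjusted p = 0.796), and Oprm1 was too low to compare. Pnoc, the remaining opioid precursor, gives nociceptin. Its group means lay between 54.8 (Se_HD) and 64.8 (Ctr), and no Pnoc contrast passed the unadjusted threshold. In HD versus Ctr the Pnoc log2 fold change was -0.26 ± 0.24, -0.41 without HD library 21 and -0.09 without HD library 15. The nociceptin receptor Oprl1 was at 376 ± 57.7 in Ctr and 367 ± 34.4 in HD.

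Npy, an inhibitory peptide of interneurons, shared the high mouse with Penk. The Ctr mice had 126, 187, 162, 204 and 194 normalized counts, LD 165, 202, 248, 194 and 306, and HD 191, 218, 171, 925 and 218. With selenium the values were 247, 178, 228, 243 and 115 in Se_Ctr, 139, 182, 208, 182 and 110.1 in Se_LD and 172, 209.6, 176, 164 and 163 in Se_HD. The other 4 HD mice spanned 171 to 218, which overlaps every other group. The Npy log2 fold change in HD versus Ctr was 0.65 ± 0.32 (limma adjusted p = 0.613, exact permutation p = 0.127), and 0.21 without HD library 21 (adjusted p = 0.891). In Se_LD and Se_HD versus Se_Ctr the Npy values were -0.28 ± 0.18 and -0.14 ± 0.18. Without Se_Ctr library 28 they were -0.47 and -0.33. On leaving out single mice the lowest limma p were 0.00537 and 0.0379, and the lowest adjusted p 0.884 and 0.929. The Npy receptors Npy1r, Npy2r and Npy5r had means of 300.0, 363 and 62.7 normalized counts. None of these 3 passed in HD versus Ctr, with log2 fold changes of -0.06, 0.28 and -0.29.

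In HD library 21, Penk was 8.18 times and Npy 4.95 times the median of the other 29 libraries, while Pdyn was 0.290 times, Sst 0.550 times and Cck 0.607 times. Penk and Npy were the highest of the series there, and Pdyn, Sst and Cck the lowest. Gal and Trh, 2 further peptide precursors, reached 97.1 and 83.2 normalized counts against medians of 3.70 and 4.04 in the others. Of the reactive astrocyte genes, Gfap was at 32820 (others 1337 to 12450), Cd44 at 1610 (29.7 to 135) and Timp1 at 503 (0.0 to 19.2). Of the activity-regulated genes, Bdnf (963), Nptx2 (285) and Inhba (216) were the highest of the series, and Fosb (55.5) and Egr1 (512.5) the lowest. Of 21 interneuron identity genes, 6 were at their lowest of the series, among them the vesicular GABA transporter Slc32a1 (268) and Pvalb (151), 2 were at their highest, Sox6 (242) and Htr3a (66.9), and 13 lay within the range of the others. Striatal Drd1a was highest there at 188, while the other 8 striatal genes found in the table were not. The part of these genes in the peptide values was not tested.

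**Figure D4:**
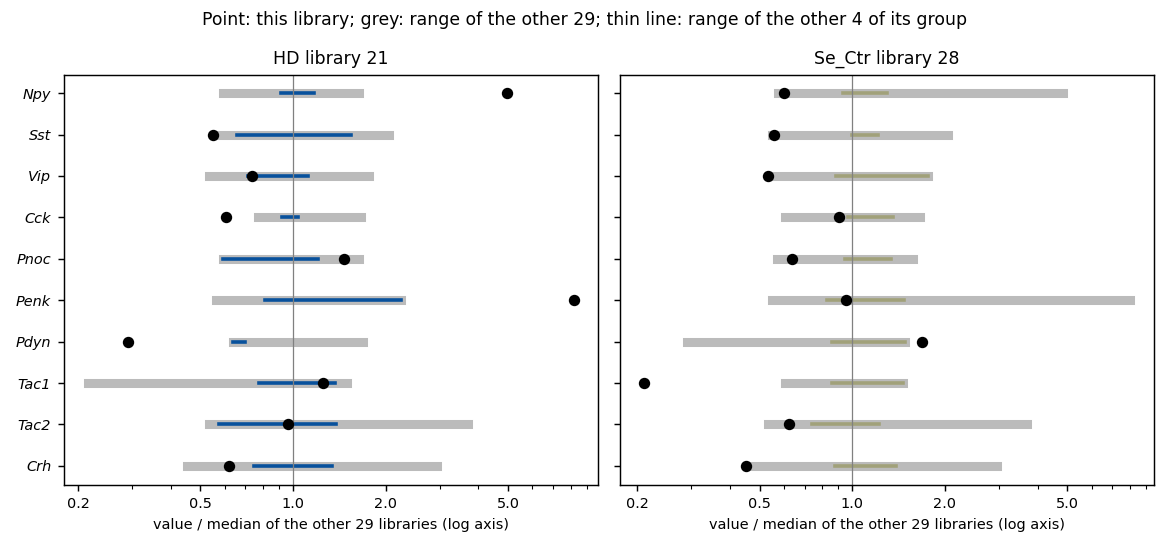
Value of each member in HD library 21 (left) and Se_Ctr library 28 (right) divided by the median of the other 29 libraries, on a log axis. Black points are the named library, grey bars the range of the other 29, and thin bars the range of the other 4 mice of its group. Penk (8.18), Npy (4.95), Pdyn (0.290), Sst (0.550) and Cck (0.607) leave the grey range on the left, and Tac1, Vip, Crh and Pdyn on the right.

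Microglial and astrocytic genes moved with the HD group as a whole and are given here beside the members. The summed level of 18 microglial genes was 4908 to 11990 normalized counts in HD and 3799 to 4157 in Ctr, and of 11 reactive astrocyte genes 5613 to 45080 in HD and 2633 to 3221 in Ctr. All 5 HD mice were above all Ctr mice in both sums. Of the microglial genes, 8 of 18 rose at a limma adjusted p of 0.05 (Csf1r, C1qa, C1qb, C1qc, Tyrobp, Ctss, Cd68 and Fcer1g), and Gfap rose among the astrocyte genes by 2.39 ± 0.35 on the log2 scale (adjusted p = 0.00716). For HD pooled over both diets, 7 microglial genes (those above without Fcer1g) and Gfap and Osmr rose. No gene of the table passed in HD versus Ctr in limma without trend. In Se_HD versus Se_Ctr no gene of either list passed the adjusted threshold, with microglial sums of 3994 to 4740 in Se_HD and 3710 to 4504 in Se_Ctr. The reactive astrocyte sums were 3608 to 4504 in Se_HD and 2788 to 3812 in Se_Ctr. Of the 10 reactive astrocyte genes tested there, 9 had a fold change above 0 and 3 were higher at an unadjusted p of 0.05, against 2.43% of all genes, with a median log2 fold change of 0.53. Their part in the Pdyn, Penk and Npy values was not tested.

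Sst, Vip and Cck passed the adjusted threshold in no contrast between mercury doses. Sst, released by dendrite-targeting interneurons, had means of 348 ± 93.0 in Ctr, 358 ± 172.6 in LD and 278 ± 127.5 in HD, and 322 ± 86.4, 271 ± 74.8 and 313 ± 15.6 in Se_Ctr, Se_LD and Se_HD. The Sst log2 fold change in HD versus Ctr was -0.37 ± 0.28 (limma adjusted p = 0.796), -0.23 without HD library 21 and -0.60 without HD library 9. In Se_LD versus Se_Ctr the Sst value was -0.23 ± 0.18, and -0.44 without Se_Ctr library 28. Leaving out single mice brought Sst past the unadjusted threshold in both contrasts (lowest limma p 0.0359 and 0.00293). The lowest adjusted p were 0.540 and 0.870. Sst was most even in Se_HD, where the 5 mice spanned 289.6 to 329, and most uneven in LD, where they spanned 209.9 to 648. Vip, from interneurons that inhibit other interneurons, ranged from 122.8 ± 27.0 in Se_HD to 173.6 ± 31.6 in LD, and no Vip contrast passed the unadjusted threshold.

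Cck was the most abundant member at 664 normalized counts on average. The Ctr mice had 714, 705, 590.4, 665 and 514, HD 595, 671, 646, 392 and 619, Se_Ctr 724, 747, 623, 873 and 587 and Se_HD 556, 670.1, 621, 649 and 549. All 5 Se_HD values were below the Se_Ctr mean, but 3 of 5 lay within the Se_Ctr range. The Cck log2 fold change in Se_HD versus Se_Ctr was -0.21 ± 0.10 (limma adjusted p of 1.00, exact permutation p = 0.103), -0.28 without Se_Ctr library 28 (adjusted p = 0.929) and -0.14 without Se_Ctr library 22 (adjusted p = 0.999). The unadjusted call of Cck was lost on leaving out Se_Ctr library 4, 10 or 22 or Se_HD library 6, 18 or 30. In HD versus Ctr the Cck value was -0.14 ± 0.17, and -0.0019 after leaving out HD library 21. The brain cholecystokinin receptor Cckbr was at 107 ± 39.4 in Ctr and 74.4 ± 36.0 in HD (log2 fold change -0.56 ± 0.31, limma adjusted p = 0.686).

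Tac1, the substance P precursor, passed the unadjusted threshold in no contrast. The Se_Ctr mice had 72.0, 47.5, 50.1, 80.9 and 11.7 normalized counts, and the lowest of these, library 28, was the lowest of the series. The Tac1 log2 fold change in Se_Ctr versus Ctr was -0.38 ± 0.31 and changed sign to 0.08 without library 28 (limma adjusted p of 1.00 in both). In Se_HD and Se_LD versus Se_Ctr the Tac1 values were 0.28 ± 0.36 and 0.0046 ± 0.36. Without library 28 they were -0.18 and -0.45. Outside Se_Ctr, Tac1 means lay between 45.2 (Se_LD) and 59.3 (HD). Crh, which encodes the stress peptide of a set of hippocampal interneurons, had 5.38 to 35.0 normalized counts, and its group means ran from 10.3 in Se_LD to 16.8 in Ctr. Crh contrasts did not pass, and the 27.6% counting error of this gene limits what could be seen.

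Tac2, the neurokinin B precursor, was high in 4 mice. The LD mice had 17.0, 68.5, 17.8, 18.0 and 53.4 normalized counts and the Se_LD mice 20.4, 32.5, 15.1, 19.8 and 69.5. The other groups stayed at 10.8 to 25.7 (HD), 11.3 to 28.4 (Ctr), 11.7 to 22.8 (Se_Ctr) and 9.99 to 19.1 (Se_HD). The 4 high libraries, LD 8, LD 26, Se_LD 11 and Se_LD 29, also had the 4 highest values of Gpr151, an orphan receptor of the habenula, at 46.9 to 111 normalized counts against 1.13 to 44.1 in the other 26. Tcf7l2, a transcription factor of thalamus and habenula, was at 197 to 558 in these 4 and 53.7 to 269 in the others. Over all 9273 genes with a mean of at least 100, Tcf7l2 was the gene with the highest correlation to Tac2 (Pearson r = 0.692 of deviations from group means, 30 libraries), given as a description. The Tac2 log2 fold change in LD versus Ctr was 0.55 ± 0.39, and -0.14 without the 4 libraries. In Se_LD versus Se_Ctr it was 0.62 ± 0.32 (limma adjusted p of 1.00, exact permutation p = 0.175), and 0.08 without them. These libraries were chosen after seeing the data and are also those with the 4 highest Tac2 values, so lower Tac2 values without them follow from the choice.

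**Figure D5:**
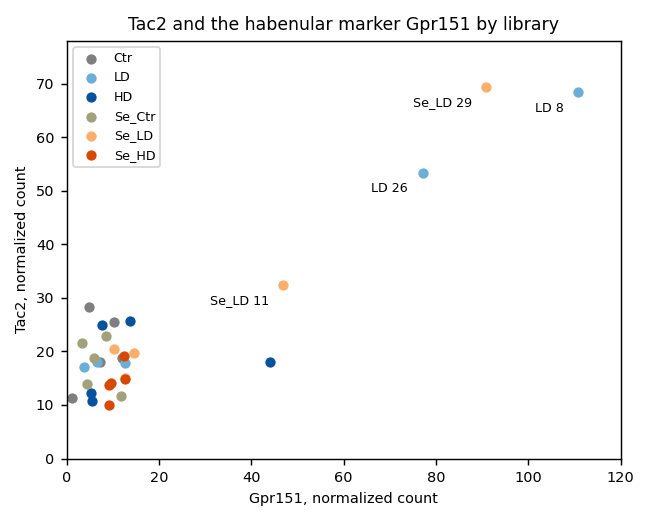
Normalized counts of Tac2 against Gpr151 in the 30 libraries, coloured by group. The 4 libraries at the upper right (2 of LD, 2 of Se_LD) have 32.5 to 69.5 counts of Tac2 and 46.9 to 111 of Gpr151, and the other 26 stay at or under 28.4 counts of Tac2.

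Members were compared mouse by mouse after group means were removed. Of 45 pairs, 33 had a Pearson r above 0, and no pair passed by both Pearson and Spearman after Benjamini-Hochberg adjustment over the 45 (permutation within groups, 100000 resamples). Npy and Penk came closest, with r = 0.793 (permutation adjusted p = 0.0333) and rho = 0.607 (adjusted p = 0.0661) over 30 libraries. Without HD library 21 r was 0.607, and without the 2 libraries farthest from the median it was 0.662. Sst and Cck had r = 0.597 and rho = 0.527 (permutation adjusted p = 0.121 and 0.206).

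The genes whose deviations were most like those of each member are given as a description over 30 libraries that share their depth and dissection. Sst was closest to Cox6a1 (r = 0.922), Ndufs7 (0.902) and Cisd1 (0.881), which encode small mitochondrial proteins. Cck was closest to 2810405K02Rik (0.858), Actl6b (0.843) and Tubb3 (0.839), Npy to Odc1 (0.838), Rgs4 (0.824) and Kcnip3 (0.819), and Penk to Prss23 (0.840), Vim (0.823) and Ybx1 (0.819). Without HD library 21 the first gene of Npy fell to 0.639 and that of Penk to 0.690. Pdyn was closest to Cnnm1 (0.772), Mat2b (0.718) and Amigo1 (0.694), and Tac1 to Resp18 (0.788), Fam5c (0.780) and Pde9a (0.778). Vip was closest to Ldb2 (0.765), Serpini1 (0.736) and Nxph3 (0.711), Pnoc to 6330403K07Rik (0.755), Gpx1 (0.748) and Mt1 (0.739), and Crh to Rrp36 (0.626), Ddx27 (0.610) and Cacng2 (0.601). Tac2 was closest to Tcf7l2, as above, 1810041L15Rik (0.690) and Amotl1 (0.682).

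Short transcripts as a class differed between libraries, and the exons of Sst, Cck, Npy and Tac2 span under 1000 bases. The median deviation of 311 genes with under 1000 exonic bases minus that of 5715 genes with over 4000 ran from -0.344 to 0.413 (log2) over the 30 libraries. The group medians of this measure were 0.0157 in Ctr and -0.00732 in HD. Cck followed it, with r = 0.747 and rho = 0.661 over 30 libraries (permutation adjusted p = 0.0022 and 0.0064 over the 10 members), and r = 0.678 without the 2 farthest libraries. Sst had r = 0.583 (permutation adjusted p = 0.0455) and rho = 0.474 (adjusted p = 0.133), and r = 0.347 without those 2, so its relation rests on them. The other 8 members did not pass, among them Npy (r = 0.157) and Tac2 (r = 0.227), which are also short, and Pdyn (r = 0.051) and Penk (r = 0.108).

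Promoter sequence was compared among the members with an entry in the sequence table, which leaves out Penk, Pnoc and Crh. The window was the 100 bases before each RefSeq start (GRCm38.p6), of which the sequence table held 8 for 7 members. The 5 letters TGACG, on either strand, form the core of the cyclic AMP response element, whose full palindrome is TGACGTCA. Among all 32851 windows 10.5% held TGACG and 1.15% the full 8 letters. Of the 7 members, 4 held TGACG (Sst, Vip, Cck and Tac1), and Sst the full palindrome. Matches are in capitals in the lines of Sst, Vip, Cck and Tac1, read 5′ to 3′ on the strand of the gene, and the window of Npy and that of the upstream start of Pdyn, with none, follow for comparison.
Sst: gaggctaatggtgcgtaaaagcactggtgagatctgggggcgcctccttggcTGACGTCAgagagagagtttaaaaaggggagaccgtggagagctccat
Vip: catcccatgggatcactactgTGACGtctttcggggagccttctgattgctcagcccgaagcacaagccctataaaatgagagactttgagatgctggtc
Cck: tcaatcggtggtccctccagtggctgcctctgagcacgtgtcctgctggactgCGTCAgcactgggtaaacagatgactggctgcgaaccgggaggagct
Tac1: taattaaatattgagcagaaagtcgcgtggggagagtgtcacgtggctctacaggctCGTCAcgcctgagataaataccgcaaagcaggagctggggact
Npy: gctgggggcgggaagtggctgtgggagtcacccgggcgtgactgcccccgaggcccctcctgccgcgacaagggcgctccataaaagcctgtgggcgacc
Pdyn: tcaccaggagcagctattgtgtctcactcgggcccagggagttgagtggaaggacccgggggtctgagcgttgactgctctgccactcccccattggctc
The Sst window is chr16:23890845-23890944 and the Cck window chr9:121495695-121495794, both on the minus strand. The Vip window is chr10:5639118-5639217, the Tac1 window chr6:7554961-7555060 and the Npy window chr6:49822610-49822709, on the plus strand, and the Pdyn window chr2:129699939-129700038 on the minus strand. The first letter of the match stood 48 bases before the start in Sst, 79 in Vip, 47 in Cck and 43 in Tac1. The downstream Pdyn start and Tac2 held none either. Vip is on the minus strand in the NCBIM37 annotation and on the plus strand in the GRCm38.p6 table. The strand setting of the counting was not given in the sources used here, and its bearing on the Vip counts was not tested. A match describes letters only, and binding was not measured.

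The wider peptide system was followed through fixed lists of genes. Of 21 receptors tested in HD versus Ctr, none passed either threshold, and the median log2 fold change was -0.05 against 0.01 over all genes. For HD pooled over both diets, Oprd1 had the lowest p among receptors (-0.39 ± 0.16, limma adjusted p = 0.440), followed by Crhr1 (-0.27 ± 0.16, adjusted p = 0.658). Of 17 genes for processing and storage of peptides, 5 were lower in HD versus Ctr at an unadjusted p of 0.05 and none passed the adjusted threshold. HD library 21 held the lowest value of the series in 6 of these 17 and the highest in 2, and the count without it was not computed. Of all genes, 3.26% were lower and 5.08% higher in HD versus Ctr at that unadjusted threshold, which is the background for each count of these lists. The prohormone convertase gene Pcsk2 had -0.36 ± 0.10 in HD versus Ctr (limma adjusted p = 0.176) and its chaperone Scg5 -0.28 ± 0.13 (adjusted p = 0.584). For HD pooled over both diets Pcsk2 had -0.21 ± 0.06 (limma adjusted p = 0.224) and Scg5 -0.19 ± 0.07 (adjusted p = 0.369). Both were at their lowest of the series in HD library 21, at 1305 and 1682 normalized counts. Of 17 other neuropeptide genes with a row, 16 were tested in HD versus Ctr and 1 was called lower at the unadjusted threshold. Gal and Trh gave 1.28 ± 0.53 and 1.21 ± 0.61 for HD pooled over both diets (limma adjusted p = 0.434 and 0.559), with HD library 21 highest in both.

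Of 21 interneuron identity genes, 1 was higher and 4 lower in HD versus Ctr at the unadjusted threshold, against 5.08% and 3.26% of all genes, and the median was -0.13. For HD pooled over both diets, Maf, a transcription factor of interneurons from the medial ganglionic eminence that is also found in microglia, rose by 0.34 ± 0.07 (limma adjusted p = 0.0355), the only gene of the list to pass. Of 13 activity-regulated genes, 2 were lower in HD versus Ctr at the unadjusted threshold, with a median of -0.54, and Dusp1 gave -0.50 ± 0.18 for HD pooled over both diets (limma adjusted p = 0.309) and Npas4 -0.57 ± 0.28 (adjusted p = 0.542). Of 18 principal cell genes, 2 were higher and 1 lower in HD versus Ctr, with a median of -0.03. Tbr1 gave -0.40 ± 0.11 (limma adjusted p = 0.154) and Trhr 0.68 ± 0.29 (adjusted p = 0.456) for HD pooled over both diets. In LD versus Ctr and in Se_LD versus Se_Ctr, no gene of these 6 lists passed the adjusted threshold.

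Markers of neighbouring tissue differed between mice. The summed level of 10 thalamic and habenular genes ran from 1115 (HD library 21) to 4196 (LD library 8), with Se_LD library 29 (4180) and Se_LD library 11 (3947) next and the other 27 at or under 2474. Nrgn, which hippocampal neurons also express, was left out of this sum after seeing the data, and with it the 11 listed genes ran from 3469 to 9759. Of these 11 genes, 6 were higher in Se_LD versus Se_Ctr at an unadjusted p of 0.05 (1.8% of all genes were) and 3 in LD versus Ctr (1.67%), with medians of 0.61 and 0.45 and none past the adjusted threshold. Striatal sums over 9 genes ran from 871 to 1357, and those of 9 cortical and amygdalar genes from 1627 (Se_Ctr library 28) to 3365. The 10 choroid plexus genes ranged from 313.8 to 38420 within Se_LD alone, and 2 of them were at 0 in at least 1 library. In HD versus Ctr, 10 of 10 choroid plexus genes had a fold change above 0 with a median of 1.45, 2 at an unadjusted p of 0.05 and none at the adjusted threshold. In Se_LD versus Se_Ctr 0 of 10 were above 0 (median -0.85) and none passed either threshold. The summed level of 5 erythrocyte genes ran from 133 to 637. Of the hypothalamic markers, Oxt was at 0 in 19 libraries and Pmch in 16. The part of neighbouring tissue in the member values was not tested.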

How the data were processed

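RNA of the hippocampus of 30 mice was sequenced on a NextSeq as single-end 75 base reads from stranded mRNA libraries. The paper names the Norwegian Sequencing Centre for library preparation and sequencing. According to the methods and processing notes, reads were trimmed (Trim Galore 0.4.2), aligned with HISAT2 to NCBIM37 and counted with featureCounts, whose strand setting was not given in the sources used here. The deposited signal values are read counts divided by DESeq2 size factors; whole reads were recovered for 100% of values (tolerance 0.05), and the recovered size factors differed from medians of ratios by at most 2.79e-11. Of 21412 genes, 21326 had a symbol, and no column was left unused. Library totals of 5768208 to 11510521 reads set the precision, and counting errors cover counting only.

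From these values, log2(value + 1) was fitted with limma 3.58.1 (trend) in R 4.3.3. Contrasts within a diet used that diet's 15 libraries and contrasts across diets all 30, for genes whose values sum to at least 10 in the fit. P-values were adjusted by Benjamini-Hochberg over all genes tested. A single member was also tested with an exact two-sided permutation test. Alternatives were edgeR 4.0.16 and DESeq2 1.42.0 on recovered reads, other pseudocounts, filters and normalizations, all 30 libraries in one fit, and each mouse left out. Only the fit of HD versus Ctr was also run on simulated counts with set changes. In these counts no library was set apart, and the other contrasts were not covered. Groups came from the treatment label, library numbers from the sample titles, and replicates were separate mice. Gene models were GENCODE M1 on NCBIM37, and promoter windows came from a RefSeq table (GRCm38.p6) that held 7 of the 10 members. Named genes were the members, list genes with an adjusted p under 0.05 (otherwise the 2 lowest p for HD pooled over both diets), and the 3 genes most like each member. Outside this rule, receptors of the members, Nrgn, Oxt, Pmch and A830012C17Rik are given. Genes described for single libraries, Gpr151 and Pomc were named after their values were seen. The members and lists were chosen with earlier results of these data known.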

Additional observations from a re-analysis of the deposited data

Results flagged for a closer look

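In 11 of 60 sets of 5 mice (10 members in 6 groups), the highest or lowest mouse was separated from the nearest by over 0.71 of the range of its group, where chance gives about 1 in 20 sets, or 3. HD library 21 accounts for 4 of them, high for Npy (gap 0.937 of the range) and Penk (0.805) and low for Pdyn (0.850) and Cck (0.728). The others were each in another mouse. Penk was high in LD library 26 (0.725) and in Se_Ctr library 4 (0.773). Npy was high in Se_HD library 12 (0.715), Sst in Se_LD library 17 (0.791), Pnoc in Se_LD library 11 (0.788) and Crh in Ctr library 19 (0.712), and Vip was low in Se_HD library 18 (0.739).

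The Pdyn effect of HD differed between diets by 0.68 on the log2 scale (limma adjusted p = 0.997), from -0.93 without to -0.24 with selenium, and it does not pass over all genes.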

How the results depend on the processing

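Pdyn in HD versus Ctr stayed negative and under an unadjusted p of 0.05 in all 13 other settings tried beside leaving out single mice, from -0.99 (quantile normalization) to -0.70 (HD library 21 and Se_Ctr library 28 left out together), with adjusted p from 0.0256 to 0.326. Leaving out single mice gave -1.0 (without HD library 27) to -0.70 (without HD library 21) for Pdyn, with limma adjusted p from 0.0897 to 0.326. Of 2160 single fold changes under alternatives, 105 changed sign within 1 SE of 0, 41 passed the unadjusted threshold only under the alternative and 35 only in the reported fit. A further 4 reversed, namely Tac1 in Se_Ctr versus Ctr (0.075 without Se_Ctr library 28, alone or together with HD library 21), Tac2 in LD versus Ctr (-0.14 without the 4 libraries highest in Gpr151) and Npy for HD pooled over both diets (-0.064 without both HD library 21 and Se_Ctr library 28). The unadjusted call of Penk in HD versus Ctr was lost without Ctr library 1 or 13 or HD library 3 or 21, that of Penk for HD pooled without Ctr library 1 or HD library 21, and that of Pdyn in the interaction without Ctr library 1, 13 or 19, HD library 21, Se_Ctr library 4, 10 or 16, or Se_HD library 6, 12 or 30. Leaving out single mice moved Tac1 in Se_Ctr versus Ctr from -0.60 to 0.075.

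Counts of members at an unadjusted p of 0.05 were 0 in LD versus Ctr, 2 in HD versus Ctr, 0 in Se_LD versus Se_Ctr, 1 in Se_HD versus Se_Ctr, 2 for HD pooled, 1 for selenium pooled and 1 for the interaction, and moved as follows, with causes not tested. With a pseudocount of 10 the interaction had 0, and with a mean filter of 10 or all 30 libraries in one fit Se_HD versus Se_Ctr had 0. By edgeR and by DESeq2, Se_LD versus Se_Ctr had 1, selenium pooled 2 and the interaction 2, against 3.45%, 7.63% and 5.24% of all genes by edgeR and 2.49%, 6.56% and 4.33% by DESeq2. limma without trend gave 1 in HD versus Ctr, 0 in Se_HD versus Se_Ctr, 1 for HD pooled and 0 for the interaction. Requiring the F test as well gave 1, 0 and 1 in the first 3 of these. The calls lost by requiring the F test were Penk in HD versus Ctr and for HD pooled, and Cck in Se_HD versus Se_Ctr. Without HD library 21 and Se_Ctr library 28, a choice made after seeing the data, LD versus Ctr had 1, HD versus Ctr 1, Se_LD versus Se_Ctr 2, Se_HD versus Se_Ctr 2, Se_Ctr versus Ctr 1 and HD pooled 1. Leaving out each mouse in turn gave ranges of 0 to 1 in LD versus Ctr, 1 to 4 in HD versus Ctr, 0 to 2 in both Se_LD versus Se_Ctr and Se_HD versus Se_Ctr, 1 to 2 for HD pooled and for selenium pooled, and 0 to 3 for the interaction. The share of all genes called was not computed for the fits that left out mice. Their counts therefore have no background and are not read as results about the members. At the adjusted threshold, DESeq2 and all 30 libraries in one fit each gave 1 member (Pdyn) in HD versus Ctr, and leaving out single mice gave 0 to 1 in the test over 6 groups, with 1 when Se_LD library 29 was left out.

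Over all genes, the count at an adjusted p of 0.05 in HD versus Ctr was 26 and became 17 and 11 with pseudocounts of 0.1 and 10, 0 by limma without trend (1595 at an unadjusted p of 0.05), 45 by edgeR and 196 by DESeq2, and for HD pooled over both diets 45 became 23 by limma without trend, 68 by edgeR and 183 by DESeq2. The calls of microglial genes and of Gfap in HD versus Ctr are therefore lost by limma without trend. Counts of 0 became at most 12 by any tool for the interaction, 4 in Se_HD versus Se_Ctr, 3 for selenium pooled and 1 in Se_Ctr versus Ctr.

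The labels give no replicate numbers shared between groups. A fit with the set of 6 library numbers as a covariate, each set holding 1 library of every group, gave -0.93 for Pdyn (limma adjusted p = 0.164) and 1.01 for Penk (adjusted p = 0.451) in HD versus Ctr and moved none of the counts of members by over 1.5 times, although the 1 member called in the interaction was then Npy and not Pdyn. Low reads limit Crh and Tac2, and no setting moved the median of all genes by over 0.05 (log2).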

Other observations

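Pomc, the precursor of beta-endorphin and of adrenocorticotropic hormone, was at 1966 normalized counts in Ctr library 1 and at no more than 14.2 in the other 29 libraries, with a median of 3.75 over all 30. The same library was not the highest of the series for any hypothalamic gene of the list other than Pomc. This gene was singled out after its values were seen, and among the members Ctr library 1 was the lowest Ctr mouse for Penk (91.8), Npy (126) and Pnoc (53.1) and the highest for Pdyn (71.2) and Cck (714).

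Gal, a peptide of injury and of hypothalamic neurons, was at 97.1 normalized counts in HD library 21 and at no more than 12.7 elsewhere, and Trh at 83.2 against at most 37.5. Nts, Adcyap1 and Nppc were at their lowest of the series in Se_Ctr library 28, at 12.5, 14.3 and 12.5 against medians of 50.4, 53.6 and 34.5 in the others, as were Vip, Tac1 and Crh among the members.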
